A study of Mus musculus with 6 samples.

Results

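The 33 genes described here are markers of the endothelium that lines the capillaries of pancreatic islets. They were taken from a list of gene symbols, by the RefSeq accession that the array annotation gives for each probe. They had 40 probes on the array, and 30 of the 33 genes could be tested among 19020 genes in all (13369 with a gene symbol). The remaining 3, Flt4, Calcrl and Cldn5, were too dim. Islets were from male mice of ICR background aged 16 weeks, per the labels, and each group had 2 one-colour microarrays. All 3 groups carried the floxed Trsp gene, which encodes the transfer RNA for selenocysteine. TrspFF islets (TrspFlox/Flox) had no Cre. Trsp-RIPKO islets (TrspFlox/Flox::RIP-Cre) had Cre under the rat insulin promoter, and Trsp-Ins1KO islets (TrspFlox/Flox::Ins1-Cre) had Cre under the Ins1 promoter. Both promoters direct Cre to insulin-producing beta cells and not to endothelium, and RIP-Cre is also known to act in neurons of the hypothalamus. No group with Cre and an intact Trsp gene was analysed here, so Cre and loss of Trsp cannot be told apart. The comparisons ask how the endothelial transcripts of whole islets differed between each knockout and TrspFF, and between the knockouts.

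Islet capillaries are dense, fenestrated and wrapped in a basement membrane that the endothelial cells themselves lay down. Beta cells secrete vascular endothelial growth factor A (VEGF-A), which acts on the receptor KDR of neighbouring endothelial cells and keeps these capillaries open and fenestrated, while FLT1 binds the same ligand with weak signalling. Endothelial identity rests on transcription factors of the ETS family, such as ERG, together with SOX7, SOX17 and SOX18.

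The windows upstream of the members were read to see what the genes share in sequence. RefSeq (GRCm38.p6) gave 21 promoters for 16 of the 33 genes. Within the 250 bases before the transcription start, the motif CNGGAAG, a form of the ETS site, was searched on both strands. It occurred in 12 of the 16 genes (75%), against 29.2% of 27025 genes, and in 13 of 21 member promoters (61.9%), against 26.6% of 32851 promoters. CCACCC, a form bound by KLF factors, occurred in 8 of the 16 genes (50%, against 30.6%). AACAAT, a SOX form, occurred in 4 of them (25%, against 10.9%). The GATA form AGATAA occurred in 2 (12.5%, against 11.4%). These are matches of letters and not sites shown to be bound. Matches of different motifs may overlap and were counted separately.

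The windows of 4 members that were higher in Trsp-Ins1KO islets and hold an ETS-type match are shown. Kdr, the main VEGF receptor, was also called higher there but has no match, and whether matches go with a rise was not tested. Its window is shown with the other 4. Each runs 5′ to 3′ on the gene's own strand and ends at the base before the RefSeq start, with CNGGAAG or its reverse complement in capitals. The base of the match nearest the start lies 67 bases before it in Flt1, 44 in Robo4, 85 in Rasip1 and 75 in Tie1, whose window holds 2 matches.
Flt1, chr5:147726012-147726261, minus strand: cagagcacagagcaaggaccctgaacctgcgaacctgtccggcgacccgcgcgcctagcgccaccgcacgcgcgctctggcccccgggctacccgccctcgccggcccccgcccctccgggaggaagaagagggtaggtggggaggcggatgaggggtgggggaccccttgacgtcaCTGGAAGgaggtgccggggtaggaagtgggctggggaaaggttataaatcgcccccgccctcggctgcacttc
Robo4, chr9:37401722-37401971, plus strand: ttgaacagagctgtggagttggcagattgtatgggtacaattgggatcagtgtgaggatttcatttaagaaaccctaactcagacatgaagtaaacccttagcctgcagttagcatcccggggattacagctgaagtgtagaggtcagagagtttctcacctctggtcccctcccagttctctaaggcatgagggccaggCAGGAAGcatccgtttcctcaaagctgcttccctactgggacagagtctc
Tie1, chr4:118489850-118490099, minus strand: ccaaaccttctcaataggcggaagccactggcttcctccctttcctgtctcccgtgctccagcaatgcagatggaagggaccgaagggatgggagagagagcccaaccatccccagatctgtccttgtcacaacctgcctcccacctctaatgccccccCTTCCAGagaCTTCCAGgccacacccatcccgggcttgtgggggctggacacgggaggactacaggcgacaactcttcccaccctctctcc
Rasip1, chr7:45627287-45627536, plus strand: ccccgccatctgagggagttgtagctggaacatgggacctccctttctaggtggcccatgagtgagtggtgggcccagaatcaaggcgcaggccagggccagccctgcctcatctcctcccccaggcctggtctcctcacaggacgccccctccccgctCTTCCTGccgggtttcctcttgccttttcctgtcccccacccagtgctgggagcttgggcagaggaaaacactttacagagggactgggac
Kdr, chr5:75978456-75978705, minus strand: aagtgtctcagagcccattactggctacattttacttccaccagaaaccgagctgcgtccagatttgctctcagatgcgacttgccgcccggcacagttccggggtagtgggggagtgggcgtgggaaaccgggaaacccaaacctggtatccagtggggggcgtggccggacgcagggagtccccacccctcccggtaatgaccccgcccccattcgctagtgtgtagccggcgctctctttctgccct

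Levels below are log2 processed intensities relative to the 75th percentile of the same array, so that 0 is the level of that percentile and levels of different genes are not compared. That percentile lay at intensities of 203 to 247.2 for the TrspFF and Trsp-RIPKO arrays, while the Trsp-Ins1KO arrays were dimmer (121.9 and 110.7). The share of probes well above background was 57.5% to 61.0% in the first 4 and 52.2% and 51.4% in the dimmer pair. The TrspFF and Trsp-Ins1KO arrays shared slide 1, and both Trsp-RIPKO arrays lay on slide 2, so the effects of slide and genotype cannot be told apart in Trsp-RIPKO. No probe was annotated to Trsp, so the deleted gene could not check the labels. Xist, which female cells express, lay at -0.56 and -0.32 for TrspFF, at 1.05 and 1.34 for Trsp-RIPKO and at -5.79 and -5.60 for Trsp-Ins1KO. The Y-linked Ddx3y lay at 0.96 and 0.78, -0.53 and -0.44, and 0.75 and 0.51. The male label thus goes against the Xist signal of 4 arrays, and the part of sex in the results was not tested. The islet hormone genes were well above background on all 6 arrays, with Ins2 at 10.12 to 11.11 and Gcg at 8.77 to 9.38. The median gap between the 2 arrays of a group was 0.08 for the members in TrspFF, 0.11 in Trsp-RIPKO and 0.15 in Trsp-Ins1KO. The labels do not state that arrays of the same group came from separate animals. The p-values therefore reflect only how far these samples spread, which may be technical. Where groups are said below not to overlap, the share of all genes that separate likewise was not counted, so this is description only.

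All directions follow the scanner files and their titles. The authors' deposited table of log2 values carries the names TrspFF and Trsp-Ins1KO the other way round: over 19485 probes its TrspFF columns matched the Trsp-Ins1KO scanner files (r = 1) and not their own (r = -0.268 and -0.468). Which source is right cannot be told here. Under that table's own names, 2 members were higher and 22 lower in Trsp-Ins1KO than in TrspFF, and 2 higher and 16 lower in Trsp-RIPKO than in TrspFF.

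The endothelial genes were higher in Trsp-Ins1KO islets than in TrspFF islets. Of the 30 tested, 22 rose and 2 fell (limma, adjusted p under 0.05), where 23.0% of all genes tested rose and 23.0% fell (45.9% in either direction). The median difference was 0.78 over the members and -0.01 over all genes, and 28 of the 30 lay above 0. The largest increases were those of Plvap, Cdh5, Sox18 and Flt1, at 2.81-fold to 3.46-fold, and of Podxl, at least 2.87-fold, and Vwf and Lyve1 were the 2 that fell. Podxl entered the test only through the knockouts, where it was high, so its place in this count and in that of Trsp-RIPKO follows in part from the filter. Both groups lay on the same slide, and a fit of these 4 arrays alone called 21 higher and 2 lower. Both Trsp-Ins1KO arrays were dimmer (121.9 and 110.7, against 247.2 and 218.1 for TrspFF). Array brightness and genotype therefore cannot be told apart in this comparison. Xist also differed between these groups (-0.56 and -0.32 in TrspFF, -5.79 and -5.60 in Trsp-Ins1KO), and the part of sex was not tested. Of the 24 calls, 16 held in each alternative that could be run for them and with each array left out, other than the table under its own column names. For Podxl and Vwf, which are among the 16, the filter for probes above background on all arrays left no value. Without replicate 1 of TrspFF 14 rose, and without replicate 2 of TrspFF 16. The members did not change alike: beside the 22 that rose and the 2 that fell, 6 were not called, among them Pecam1 (0.07) and Emcn (0.06). In whole islets, more endothelial cells and more RNA per endothelial cell cannot be told apart.

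Fewer members were called in Trsp-RIPKO islets. Against TrspFF, 8 members rose and 0 fell, where 18.9% of all genes tested rose and 17.5% fell (36.4% in either direction), with a median of 0.20 over the members and 0.00 over all genes. Centring each array on its median moved the median of all genes by -0.24 and turned that of the members to -0.03, with 3 called higher and 3 lower. Over all genes, the same centring took the split from 3591 higher and 3329 lower to 2012 and 7264. Each of the 8 calls was lost in at least 1 of the fits that left out an array: 0 members were called without replicate 1 of TrspFF (862 of all genes were), 2 without its replicate 2, and 4 and 3 without replicate 1 and replicate 2 of Trsp-RIPKO. Every one of the 8 kept a difference above 0 in all these fits.

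Between the knockouts, 16 members were higher and 2 lower in Trsp-Ins1KO than in Trsp-RIPKO islets, where 19.3% of all genes tested were higher and 19.4% lower (38.7% in either direction). The median was 0.51 over the members and -0.01 over all genes. All 16 were also higher in Trsp-Ins1KO than in TrspFF, and 4 of them, Cdh5, Esam, Flt1 and Robo4, were higher in Trsp-RIPKO than in TrspFF as well. These comparisons share arrays, so they are not independent of each other. Of the 18 calls, 12 held in each alternative that could be run for them and with each array left out, other than the table under its own names (for Vwf, among the 12, the stricter filter left no value), and 12 to 15 genes were called higher when an array was left out.

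**Figure D1:**
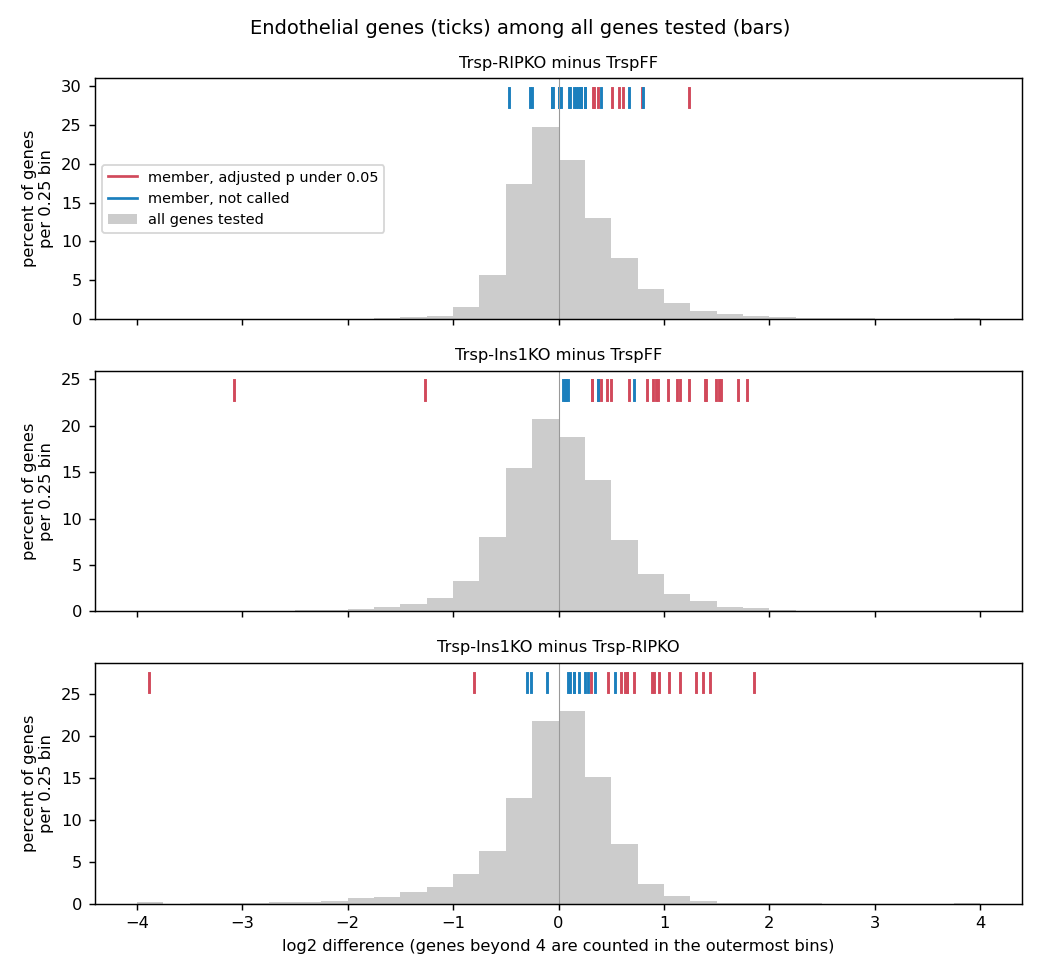
Log2 differences of the 30 tested endothelial genes (ticks, red where the limma adjusted p was under 0.05) above the distribution over all 19020 genes (grey bars, percent of genes per bin of 0.25). In Trsp-Ins1KO against TrspFF most ticks lie right of the bulk of the genes (median 0.78) and 2 lie far left, while in Trsp-RIPKO against TrspFF they lie around the bulk (median 0.20, or -0.03 when arrays are centred on their median).

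The VEGF receptors split by probe. Flt1, the decoy receptor, lay at 2.96 and 3.0 for TrspFF, at 3.60 and 3.56 for Trsp-RIPKO and at 4.47 and 4.47 for Trsp-Ins1KO. The 3 groups did not overlap and Trsp-RIPKO lay in between. The difference from TrspFF was 0.61 (SE 0.06, adjusted p = 0.00631) in Trsp-RIPKO and 1.49 (adjusted p = 0.000533, 2.81-fold) in Trsp-Ins1KO, and the knockouts differed by 0.89 (adjusted p = 0.0015). Kdr, the main signalling receptor, read 4.84 and 4.89, 5.22 and 5.24, and 5.21 and 5.43 for these groups on its brighter probe. On that probe both knockouts lay above TrspFF and overlapped each other, by 0.37 (SE 0.09, adjusted p = 0.0368) and 0.46 (adjusted p = 0.0152). The second Kdr probe read 1.36 and 1.38, 2.07 and 2.05, and 3.04 and 2.98. Its differences of 0.69 and 1.64 (limma, adjusted p over all probes = 0.00626 and 0.000612) put Trsp-Ins1KO 0.95 above Trsp-RIPKO, an order close to that of Flt1. Nrp1, the VEGF co-receptor, was dim and differed from TrspFF by -0.27 and 0.09, neither called, and Flt4, the receptor for VEGF-C, was above background on no array. The Flt1 call in Trsp-RIPKO was lost without replicate 1 of TrspFF (adjusted p = 0.0555). Those of Kdr were lost without replicate 1 or 2 of TrspFF (0.167 and 0.129 in Trsp-RIPKO, 0.087 and 0.0688 in Trsp-Ins1KO), and in Trsp-RIPKO also without either of its own arrays (0.11 and 0.133) and under median centring (a difference of 0.13).

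Among the angiopoietin receptors, Tie1 rose in Trsp-Ins1KO islets and Tek, the receptor that binds angiopoietins, was near its detection limit. Tie1, an orphan partner of Tek, lay at -2.20 and -2.43 for TrspFF, at -2.17 and -2.46 for Trsp-RIPKO and at -1.41 and -1.33 for Trsp-Ins1KO. Its Trsp-Ins1KO arrays stood above the other 4, which overlapped, by 0.94 over TrspFF (SE 0.13, adjusted p = 0.00575) and 0.95 over Trsp-RIPKO (adjusted p = 0.00661). Ptprb, the endothelial phosphatase that restrains Tek, lay at 1.78 and 1.71, 2.20 and 2.32, and 2.42 and 2.40. It was higher by 0.51 (SE 0.08, adjusted p = 0.0108) in Trsp-RIPKO and by 0.67 (adjusted p = 0.00352) in Trsp-Ins1KO. Tek itself read -3.77 to -3.50 over all arrays, was well above background on 0 of the 2 Trsp-Ins1KO arrays and was called in no comparison. The Ptprb call in Trsp-RIPKO was lost without replicate 1 or 2 of TrspFF (0.0663 and 0.0707), without replicate 2 of Trsp-RIPKO (0.0555) and under median centring (0.28, adjusted p = 0.0557).

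**Figure D2:**
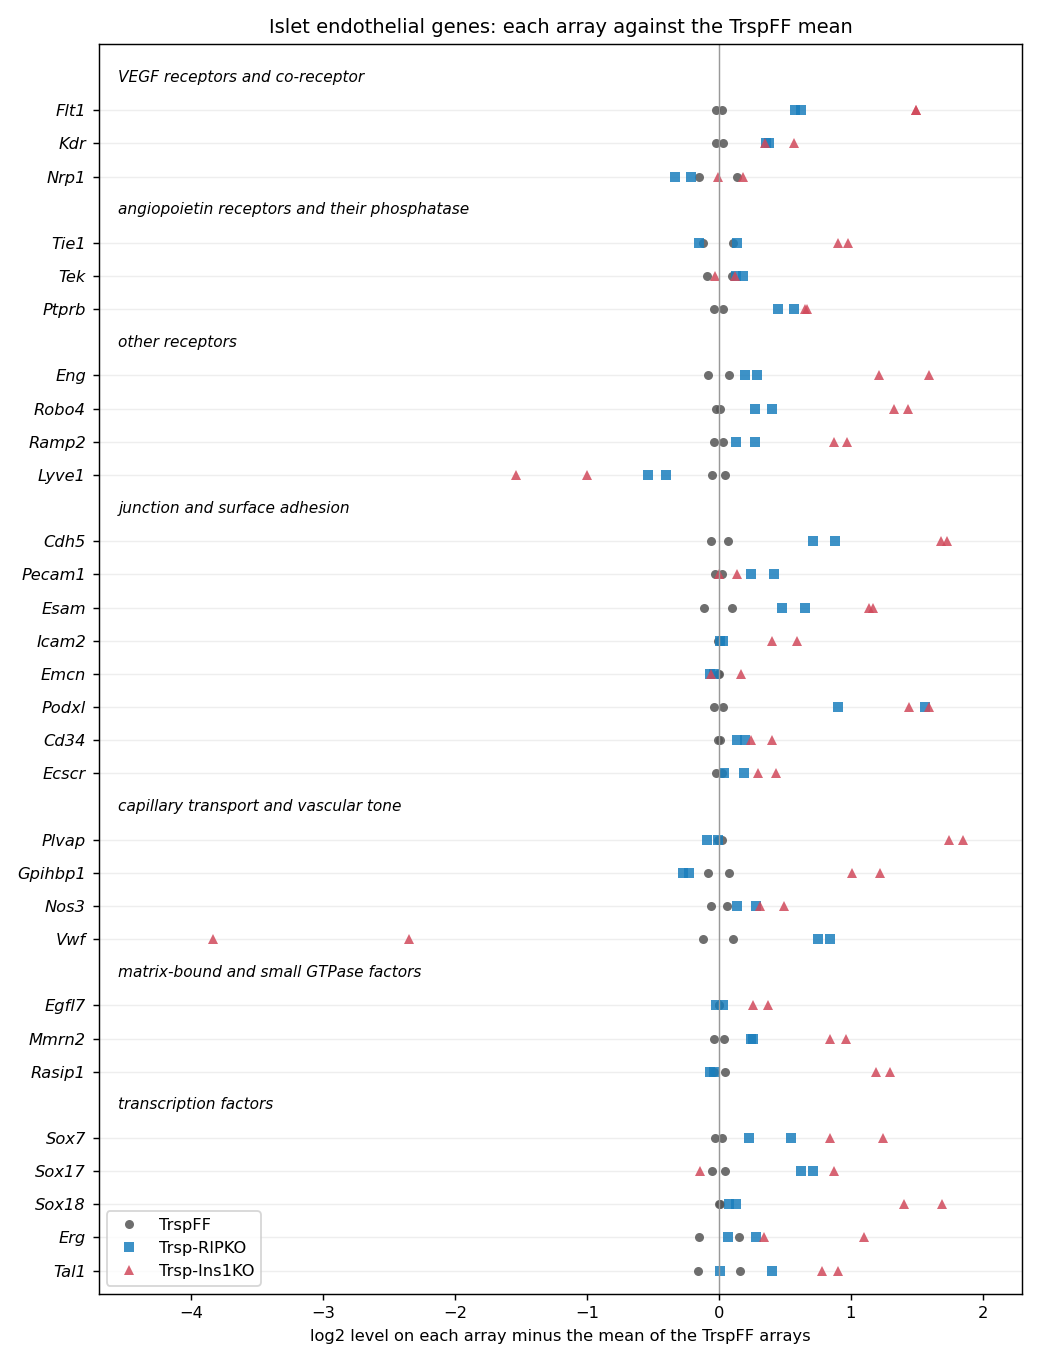
Level of each tested member on each array minus its TrspFF mean (log2, horizontal axis), grouped by role, with 2 points for TrspFF (grey circles), Trsp-RIPKO (blue squares) and Trsp-Ins1KO (red triangles). The red triangles lie farthest right for most members, up to 1.79 on average for Plvap, and far left for Vwf and Lyve1.

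The other receptors rose in Trsp-Ins1KO islets with a single exception. Endoglin (Eng), a co-receptor for BMP9 and TGF-beta, lay at -0.51 and -0.67 for TrspFF, at -0.30 and -0.39 for Trsp-RIPKO and at 1.00 and 0.62 for Trsp-Ins1KO. Robo4, a guidance receptor that steadies vessels, lay at 1.29 and 1.26, 1.68 and 1.55, and 2.71 and 2.61. For Ramp2, the partner that turns Calcrl into the adrenomedullin receptor, the values were 1.95 and 2.02, 2.26 and 2.12, and 2.96 and 2.86. In all 3 genes both Trsp-Ins1KO arrays exceeded the other 4. Their differences from TrspFF were 1.40 (SE 0.15, adjusted p = 0.00297), 1.39 (SE 0.08, adjusted p = 0.00109) and 0.92 (SE 0.09, adjusted p = 0.00243), and from Trsp-RIPKO 1.15, 1.05 and 0.72. Robo4 was the only one of them called in Trsp-RIPKO, by 0.34 (adjusted p = 0.03), a call lost without any of the 4 arrays compared (adjusted p 0.0691 to 0.139) and under median centring (0.10). Calcrl was above background on no array.

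Lyve1, a hyaluronan receptor of lymphatic vessels that some macrophages and sinusoids also carry, went the other way. It lay at -0.82 and -0.72 for TrspFF, at -1.17 and -1.31 for Trsp-RIPKO and at -1.77 and -2.31 for Trsp-Ins1KO. The groups did not overlap. Its fall from TrspFF to Trsp-Ins1KO was called, at -1.27 (SE 0.19, adjusted p = 0.00655), while the value of -0.47 in Trsp-RIPKO was not (adjusted p = 0.109), although without either Trsp-Ins1KO array it passed (0.0215). The difference between the knockouts of -0.80 (adjusted p = 0.0271) lost its call without replicate 1 or 2 of Trsp-RIPKO (0.117 and 0.0828), without replicate 1 or 2 of TrspFF (0.0553 for each) and with normexp background correction (-0.06). With that correction the difference from TrspFF shrank to -0.45.

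Among genes of cell junctions and of the cell surface, Cdh5 and Esam rose in both knockouts and more in Trsp-Ins1KO. Cdh5, VE-cadherin of the adherens junction, lay at -2.10 and -1.97 for TrspFF, at -1.16 and -1.33 for Trsp-RIPKO and at -0.36 and -0.31 for Trsp-Ins1KO. Esam, an adhesion molecule of tight junctions, lay at -0.16 and 0.05, 0.60 and 0.43, and 1.09 and 1.12. Both genes ran from TrspFF through Trsp-RIPKO to Trsp-Ins1KO without overlap. Cdh5 differed from TrspFF by 0.79 (SE 0.09, adjusted p = 0.00746) and 1.70 (adjusted p = 0.000947, 3.26-fold), and the knockouts by 0.91 (adjusted p = 0.003). For Esam the differences were 0.57 (SE 0.11, adjusted p = 0.0176), 1.15 (adjusted p = 0.00243) and 0.59 (adjusted p = 0.0126). Podxl, a sialomucin of the luminal surface, lay at -4.23 and -4.16, -3.29 and -2.63, and -2.60 and -2.75. Its probe was above background on 0 of the 2 TrspFF arrays, so Podxl was at least 2.36-fold higher in Trsp-RIPKO (adjusted p = 0.0159) and at least 2.87-fold higher in Trsp-Ins1KO (adjusted p = 0.00613). In Trsp-RIPKO the Cdh5 call was lost without replicate 1 of TrspFF (0.0552), that of Podxl without replicate 1 or 2 of TrspFF (0.0859 and 0.0736) and without the filter on dim probes (0.051), and that of Esam without any of the 4 arrays compared (0.0543 to 0.0942) and under median centring (0.33, adjusted p = 0.0559). The Esam difference between the knockouts was lost without replicate 2 of Trsp-RIPKO (0.0593).

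Smaller values were seen for the other surface genes. Icam2, an adhesion molecule for leukocytes, lay at 1.74 and 1.76, 1.76 and 1.78, and 2.34 and 2.15, and was 0.50 above TrspFF in Trsp-Ins1KO (SE 0.09, adjusted p = 0.00924) and 0.47 above Trsp-RIPKO (adjusted p = 0.0123). Cd34, a surface sialomucin, lay at 2.06 and 2.04, 2.25 and 2.19, and 2.45 and 2.29, and was 0.32 higher in Trsp-Ins1KO than in TrspFF (SE 0.08, adjusted p = 0.0293). Ecscr, a regulator of endothelial migration, lay at -0.67 and -0.63, -0.46 and -0.61, and -0.22 and -0.35, with a difference of 0.37 in Trsp-Ins1KO (SE 0.09, adjusted p = 0.0247). In each of these genes both Trsp-Ins1KO arrays lay above both TrspFF arrays. Pecam1 (CD31), the platelet-endothelial adhesion molecule, was called in Trsp-RIPKO and not in Trsp-Ins1KO. Its arrays lay at -2.18 and -2.23, -1.96 and -1.78, and -2.20 and -2.06, for differences of 0.33 (SE 0.09, adjusted p = 0.0454) and 0.07 (adjusted p = 0.557). The knockouts differed by -0.26 (adjusted p = 0.0812), so a difference between them was not shown for Pecam1. Emcn, a sialomucin of capillaries and veins, read -0.14 to 0.10 over the 6 arrays and was called in no comparison, and Cldn5, of tight junctions, was above background on 1 TrspFF array alone.

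These small calls were lost under several alternatives. Icam2 was lost against TrspFF without replicate 1 or 2 of TrspFF (0.0621 and 0.0543) and against Trsp-RIPKO without replicate 1 or 2 of Trsp-RIPKO (0.0586 and 0.0557). Cd34 and Ecscr were lost without replicate 1 of TrspFF (0.123 and 0.122), replicate 2 of TrspFF (0.131 and 0.0975) or replicate 1 of Trsp-Ins1KO (0.0747 and 0.0736), and Cd34 also without either Trsp-RIPKO array (0.051 for each). Pecam1 was lost without any of the 4 arrays compared (0.0646 to 0.185), and its call was kept in 6 of 16 alternatives, being lost also with normexp correction (a difference of 0.19), quantile normalization (0.20), median centring (0.10), no filter, the trended fit and the replicate block. In Trsp-Ins1KO, Cd34 and Ecscr were lost under median centring (0.25 and 0.30), and Cd34 also with normexp correction (0.06), without the filter and in the mean over probes. With normexp correction Pecam1 was called in Trsp-Ins1KO (0.32, adjusted p = 0.00101).

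Plvap showed the largest rise of all members. It forms the diaphragms of endothelial fenestrae and caveolae and marks fenestrated capillaries such as those of islets. Plvap lay at 2.24 and 2.21 for TrspFF, at 2.21 and 2.13 for Trsp-RIPKO and at 4.07 and 3.96 for Trsp-Ins1KO. The TrspFF and Trsp-RIPKO arrays overlapped, and Trsp-Ins1KO stood 1.79 above TrspFF (SE 0.08, adjusted p = 0.000533, 3.46-fold) and 1.85 above Trsp-RIPKO (adjusted p = 0.000486). A second Plvap probe read -0.78 and -0.77, -1.31 and -1.59, and 0.78 and 0.33. It gave 1.33 in Trsp-Ins1KO and, unlike the first, -0.67 in Trsp-RIPKO (limma, adjusted p over all probes = 0.00535 and 0.0415).

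Gpihbp1, which carries lipoprotein lipase across capillary endothelium, followed the same order. Its arrays lay at 1.37 and 1.21, 1.06 and 1.02, and 2.51 and 2.3, so that Trsp-Ins1KO lay highest and Trsp-RIPKO below TrspFF. The differences were 1.12 in Trsp-Ins1KO (SE 0.10, adjusted p = 0.00243) and -0.25 in Trsp-RIPKO (adjusted p = 0.107, but called lower with normexp correction, median centring and the trended fit), and 1.37 between the knockouts (adjusted p = 0.00161). Nos3, endothelial nitric oxide synthase, lay at -0.63 and -0.51, -0.29 and -0.43, and -0.08 and -0.26 on its brighter probe. That probe put Trsp-Ins1KO 0.40 above TrspFF (SE 0.10, adjusted p = 0.0271), while the dimmer probe gave -0.38, which was not called. The Nos3 call was lost in the mean over both probes (0.01), under median centring (0.33), without replicate 1 or 2 of TrspFF (0.138 and 0.0733) and without replicate 1 of Trsp-Ins1KO (0.0798).

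Vwf, the clotting factor stored in endothelial Weibel-Palade bodies and in platelets, was far lower on the Trsp-Ins1KO arrays. It lay at -0.78 and -1.01 for TrspFF, at -0.14 and -0.05 for Trsp-RIPKO and at -3.24 and -4.72 for Trsp-Ins1KO, where 1 of the 2 arrays was above background. The gap of 1.48 between those 2 arrays was the widest of any member in any group. Vwf fell by 3.08 against TrspFF (SE 0.47, adjusted p = 0.00698) and by 3.88 against Trsp-RIPKO (adjusted p = 0.00464), and the value of 0.80 in Trsp-RIPKO was not called (adjusted p = 0.233). With either Trsp-Ins1KO array left out the fall ranged from -3.83 to -2.34 against TrspFF. Normexp background correction shrank it to -0.75, and the call remained. In the same fits that left out a Trsp-Ins1KO array, Vwf in Trsp-RIPKO passed the threshold at 0.80 (adjusted p = 0.0128).

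**Figure D3:**
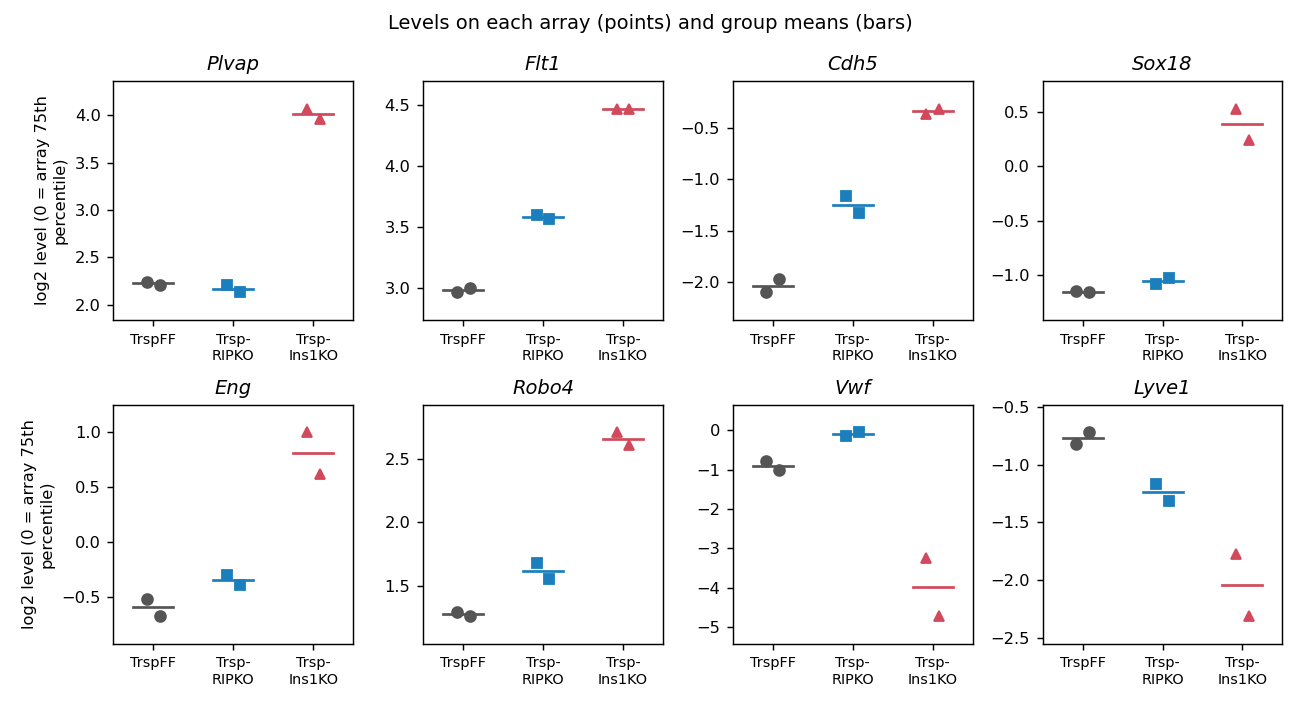
Log2 level relative to the 75th percentile of each array for 8 members, with a point for each array and a bar for each group mean, on axes that differ between panels. Flt1 and Cdh5 step up from TrspFF through Trsp-RIPKO to Trsp-Ins1KO, Plvap and Sox18 rise in Trsp-Ins1KO alone, and Vwf and Lyve1 are lowest there.

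The matrix-bound and cytoskeletal members rose in Trsp-Ins1KO and none was called in Trsp-RIPKO. Rasip1, a Ras-interacting protein needed to open vessel lumens, lay at -1.40 and -1.49 for TrspFF, at -1.49 and -1.52 for Trsp-RIPKO and at -0.15 and -0.26 for Trsp-Ins1KO. Mmrn2, an endothelial matrix protein that binds VEGF-A, lay at 2.07 and 2.15, 2.37 and 2.35, and 3.07 and 2.95. Egfl7, a secreted factor of the vessel wall, lay at 4.20 and 4.20, 4.23 and 4.18, and 4.57 and 4.46. In all 3 genes the Trsp-Ins1KO arrays exceeded the other 4. The differences from TrspFF were 1.24 (SE 0.08, adjusted p = 0.00118), 0.90 (SE 0.08, adjusted p = 0.00219) and 0.32 (SE 0.07, adjusted p = 0.021), and those from Trsp-RIPKO were 1.30, 0.65 and 0.31. The value of Mmrn2 in Trsp-RIPKO was 0.25 (adjusted p = 0.0573), and it was called in 6 alternatives (adjusted p 0.0124 to 0.0482), among them both fits without a Trsp-Ins1KO array. Egfl7 against TrspFF lost its call without replicate 1 or 2 of TrspFF (0.107 for each), without replicate 1 of Trsp-Ins1KO (0.0565), under median centring (0.25) and with normexp correction (0.00). Against Trsp-RIPKO it was lost without any array but replicate 2 of Trsp-Ins1KO (0.0675 to 0.101).

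Of the 5 transcription factors, 3 rose in Trsp-Ins1KO and none was called in Trsp-RIPKO. Sox18, which drives arterial and lymphatic programmes, lay at -1.15 and -1.16 for TrspFF, at -1.08 and -1.03 for Trsp-RIPKO and at 0.53 and 0.24 for Trsp-Ins1KO. Sox7, its relative, lay at -3.84 and -3.79, -3.58 and -3.26, and -2.57 and -2.97. Tal1, a factor of blood and vessel precursors, lay at -3.07 and -2.75, -2.90 and -2.51, and -2.01 and -2.13. Trsp-Ins1KO was highest in each without overlap, by 1.54 (SE 0.11, adjusted p = 0.00154, 2.91-fold) for Sox18, 1.04 (SE 0.17, adjusted p = 0.00851) for Sox7 and 0.84 (SE 0.18, adjusted p = 0.016) for Tal1. Erg, the ETS factor of endothelial identity, lay at -2.89 and -2.59, -2.67 and -2.46, and -2.40 and -1.64. Its difference of 0.72 in Trsp-Ins1KO did not pass (SE 0.27, adjusted p = 0.0833), although without replicate 1 of Trsp-Ins1KO it did (1.1, adjusted p = 0.0144). Sox17, of arterial endothelium, lay at -3.93 and -3.83, -3.26 and -3.17, and -3.01 and -4.02 on its brighter probe. It was called in no comparison of the main fit, with a difference of 0.67 in Trsp-RIPKO, although some fits without a Trsp-Ins1KO array called it. Its sign in Trsp-Ins1KO depended on the array kept. Without replicate 1 of Trsp-Ins1KO it was -0.14 against TrspFF and -0.81 against Trsp-RIPKO. Without replicate 2 of Trsp-Ins1KO these values were 0.87 and 0.20. The dimmer Sox17 probe was above background on 1 TrspFF array, both Trsp-RIPKO arrays and 0 of 2 Trsp-Ins1KO arrays, so it entered only through Trsp-RIPKO and its differences are not used. The Sox7 call against TrspFF was lost without replicate 1 of TrspFF (0.0516), and that of Tal1 without that array (0.0785) or replicate 1 of Trsp-Ins1KO (0.0564). Against Trsp-RIPKO, Sox7 (0.65) and Tal1 (0.63) were lost without replicate 1 of Trsp-RIPKO (0.145 and 0.143), replicate 1 of Trsp-Ins1KO (0.0989 and 0.131) or either TrspFF array (0.0719 and 0.0528), Sox7 also without replicate 2 of Trsp-RIPKO (0.057) and with the replicate block (0.0634), and Tal1 also without replicate 2 of Trsp-Ins1KO (0.083).

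**Figure D4:**
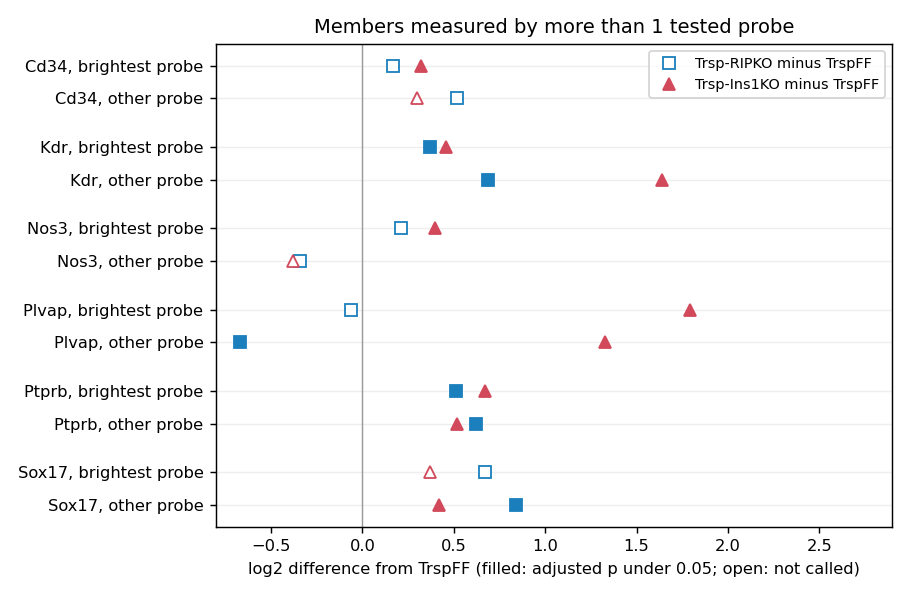
Log2 difference from TrspFF for the 6 members with more than 1 tested probe, in Trsp-RIPKO (blue squares) and Trsp-Ins1KO (red triangles), filled where the adjusted p over probes was under 0.05. The probes of Kdr differ in size (0.46 and 1.64 in Trsp-Ins1KO), those of Nos3 differ in sign, and the dimmer probes of Sox17 and Cd34 were above background on both arrays of Trsp-RIPKO alone.

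Ligands of these and of other vascular receptors gave mixed values. Of 19 listed, 14 could be tested, with 3 higher and 2 lower in Trsp-RIPKO and 5 higher and 2 lower in Trsp-Ins1KO, where 36.4% and 45.9% of all genes were called. With normexp correction 11 were higher and 2 lower in Trsp-Ins1KO, and the median of 0.11 became 0.48. Leaving out either Trsp-RIPKO array left 1 higher and 1 lower in Trsp-RIPKO. Vegfa, the beta-cell ligand of Flt1 and Kdr, was lower in both, by 0.49 (adjusted p = 0.0136) and 0.28 (adjusted p = 0.0416), from 3.46 and 3.50 for TrspFF to 2.92 and 3.05 for Trsp-RIPKO and to 3.25 and 3.15 for Trsp-Ins1KO. The Vegfa call in Trsp-RIPKO was lost without any of the 4 arrays compared and in the mean over probes (adjusted p up to 0.213 over the alternatives), and that in Trsp-Ins1KO without any of the 6 arrays (up to 0.179), where the mean over probes turned the value to 0.24. Vegfb fell by 0.84 in Trsp-RIPKO (adjusted p = 0.00688) and Vegfc fell by 0.73 in Trsp-Ins1KO (adjusted p = 0.00392). Adm2 (intermedin), a ligand of the Calcrl and Ramp receptors, rose from -4.30 and -3.75 for TrspFF to -2.39 and -2.22 for Trsp-RIPKO and to -0.51 and -0.57 for Trsp-Ins1KO, for differences of 1.72 (adjusted p = 0.00694) and 3.48 (adjusted p = 0.000972), although its probe was above background on 1 of the 2 TrspFF arrays. Pdgfb, by which endothelium attracts pericytes, rose by 1.21 in Trsp-Ins1KO (adjusted p = 0.00143), and Apln, a peptide of growing vessel tips, was at least 3.06-fold higher there (adjusted p = 0.006), the only group with its probe above background. Angpt1, the ligand of Tek made by pericytes and fibroblasts, was at least 1.47-fold higher in Trsp-RIPKO (adjusted p = 0.045) and was above background on 0 of 2 arrays of each other group, and that call was kept in 5 of 15 alternatives (adjusted p up to 0.145). Both Apln and Angpt1 entered the test only through the group where they were high.

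Endothelial genes outside the 33 were also mostly higher in Trsp-Ins1KO islets. Of 53 listed, 47 were tested, with 31 higher and 4 lower in Trsp-Ins1KO (median 0.51). In Trsp-RIPKO 16 were higher and 2 lower (median 0.22, or -0.02 under median centring, with 7 higher and 10 lower). Over all genes tested, 23.0% were higher and 23.0% lower in Trsp-Ins1KO. In Trsp-RIPKO these shares were 18.9% and 17.5% (36.4% in either direction). Without replicate 1 or 2 of TrspFF, 23 and 21 of the list were higher in Trsp-Ins1KO, and 5 and 6 in Trsp-RIPKO. Without replicate 1 or 2 of Trsp-RIPKO, 8 and 4 were higher in Trsp-RIPKO. Ephb4, a receptor of venous endothelium, differed by 0.98 and 1.57 (adjusted p = 0.0115 and 0.00255), calls that were lost in the mean over its probes and, in Trsp-RIPKO, without replicate 1 of TrspFF or of Trsp-RIPKO (adjusted p up to 0.162 and 0.0535 over the alternatives). The netrin receptor Unc5b rose by 1.41 in Trsp-Ins1KO (adjusted p = 0.00129), as did Apold1 by 1.36, the shear-responsive factor Klf2 by 1.17 and Notch4 by 1.11. Fabp4, a fatty-acid-binding protein of capillaries and adipocytes, was lower in both knockouts, by 0.96 (adjusted p = 0.00577) and 1.2 (adjusted p = 0.0019). Notch1 was 1.37 higher in Trsp-RIPKO (adjusted p = 0.0129) and -0.09 in Trsp-Ins1KO, a difference between knockouts of -1.46 (adjusted p = 0.00782), and its Trsp-RIPKO call was lost without any of the 4 arrays compared (up to 0.0751).

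Genes of the basement membrane, which surrounds the capillaries, were mostly higher in Trsp-Ins1KO islets. All 12 listed were tested, and 10 were higher in Trsp-Ins1KO (median 0.91) and 5 in Trsp-RIPKO (median 0.34), with 0 lower in either. Of all genes tested, 23.0% were higher in Trsp-Ins1KO and 18.9% in Trsp-RIPKO. Hspg2 (perlecan) rose from 0.63 and 0.69 for TrspFF to 1.27 and 1.26 for Trsp-RIPKO and to 2.21 and 2.25 for Trsp-Ins1KO, by 0.60 (adjusted p = 0.00671) and 1.57 (adjusted p = 0.000533). Without replicate 1 of TrspFF the Hspg2 call in Trsp-RIPKO was lost (0.0567). In Trsp-Ins1KO Nid2 (nidogen 2) rose by 1.58 (adjusted p = 0.0025), Col4a2 by 1.36 (adjusted p = 0.00172) and the laminin chain Lama5 by 1.28 (adjusted p = 0.000866). Without replicate 1 or 2 of TrspFF 7 were higher in Trsp-Ins1KO, and 1 and 3 in Trsp-RIPKO. Without replicate 1 or 2 of Trsp-RIPKO, 3 and 2 were higher in Trsp-RIPKO.

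Genes of mural cells, which wrap the vessels, gave counts that changed with the arrays used. For genes of lymphatic vessels the counts are those of the main fit alone. The counts here stand beside 18.9% of all genes higher and 17.5% lower in Trsp-RIPKO and 23.0% each way in Trsp-Ins1KO. Of 12 tested pericyte and smooth muscle genes, 8 rose in Trsp-RIPKO (median 0.49) and 6 rose and 1 fell in Trsp-Ins1KO (median 0.43). The 8 became 0 and 1 without replicate 1 or 2 of TrspFF, 3 and 0 without replicate 1 or 2 of Trsp-RIPKO, 1 without the filter, and 2 higher and 2 lower under median centring. Without replicate 2 of TrspFF or of Trsp-Ins1KO, 4 rose in Trsp-Ins1KO. Anpep rose by 1.31, Notch3 by 1.06 in Trsp-Ins1KO, while Rgs5, a pericyte marker, fell by 0.60 (adjusted p = 0.00644). Of 6 tested lymphatic genes, 4 rose in Trsp-RIPKO, and in Trsp-Ins1KO 1 rose (Ccbe1) and 1 fell (Vegfc). The lymphatic marker Prox1, which some islet endocrine cells also express, differed by -0.05 and 0.08, and Pdpn was above background in Trsp-RIPKO alone.

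Markers of other cells differed between the groups as well, and their part in the endothelial results was not tested. The counts below stand beside 18.9% of all genes higher and 17.5% lower in Trsp-RIPKO and 23.0% each way in Trsp-Ins1KO, and they include genes that entered only through the group where they were high. The summed level of the 30 members, in units of each array's 75th percentile, was 90.7 to 91.8 in TrspFF, 108 to 109 in Trsp-RIPKO and 155 to 156 in Trsp-Ins1KO. Such a sum weighs the brightest probes most, here those of Kdr and Egfl7 (log2 means of 4.86 and 4.2 in TrspFF). Sums are therefore read across groups within a list and not between lists. Acinar genes were mostly higher in both knockouts. Of 16 tested, 14 were higher and 0 lower in Trsp-RIPKO, and 12 were higher and 1 lower in Trsp-Ins1KO. Their sums were 20.5 to 21.3, 35.7 to 39.8 and 30.9 to 33.2. Of 7 tested liver genes 6 were higher in Trsp-Ins1KO (of the 2 that were above background on all arrays, 1), and without Ttr, which islet cells make, their sum was 0.804 to 0.873, 0.664 to 0.706 and 4.21 to 4.24. Alb was above background in Trsp-Ins1KO alone, at least 17.2-fold over TrspFF. Of 6 sinusoidal endothelial genes of liver, a list added after the data were seen, 3 were tested, and Clec4g, Oit3 and Dnase1l3 were too dim. In Trsp-Ins1KO 1 of the 3 was higher and 0 lower than in TrspFF, with a median of -0.22. The higher gene was Stab1, which macrophages share (1.43, adjusted p = 0.000819). Stab2 was above background on 0 of 2 Trsp-Ins1KO arrays. Intestinal epithelial genes were higher mainly in Trsp-RIPKO (6 of 7, against 3 of 7 in Trsp-Ins1KO), with sums of 8.01 to 8.25, 11.2 and 9.88 to 10.4. Of 15 fibroblast genes, 12 were higher and 0 lower in Trsp-RIPKO, and 1 was higher and 13 lower in Trsp-Ins1KO, where Dcn fell by 3.03 against TrspFF. Their sums were 60.5 to 64.9, 70.0 to 71.0 and 71.0 to 76.9, so the sum was highest where most of the genes were lower. With normexp correction 6 were higher and 7 lower in Trsp-Ins1KO, with a median of 0.09 in place of -0.78. Without replicate 1 or 2 of TrspFF, 5 and 7 were higher in Trsp-RIPKO and 9 and 9 lower in Trsp-Ins1KO, without either Trsp-RIPKO array 7 were higher in Trsp-RIPKO, and median centring left 7 higher there. Of 11 macrophage genes, 3 rose and 0 fell in Trsp-RIPKO, and 4 rose and 1 fell in Trsp-Ins1KO. Their sums were 144 to 146, 196 to 209 and 260 to 280. Of 4 erythrocyte genes 2 fell in each knockout. Cell-cycle genes were higher in Trsp-RIPKO (10 of 12, median 1.01) and not in Trsp-Ins1KO as a list (3 higher and 1 lower). Of 7 hypoxia targets, 1 rose and 4 fell in Trsp-RIPKO and 2 rose and 4 fell in Trsp-Ins1KO. Of 15 beta-cell genes, 0 rose and 6 fell in Trsp-RIPKO, and 6 rose and 5 fell in Trsp-Ins1KO (medians -0.1 and 0.11). Their sums were 3320 to 3710, 3660 to 3920 and 5940 to 6510. In Trsp-Ins1KO against TrspFF, Ins1 and Ins2 differed by 0.99 and 0.86, and Gcg and Sst by -0.56 and -0.78, all called. Of 9 alpha-, delta- and PP-cell genes, 1 rose and 4 fell in Trsp-RIPKO, and 0 rose and 6 fell in Trsp-Ins1KO.

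**Figure D5:**
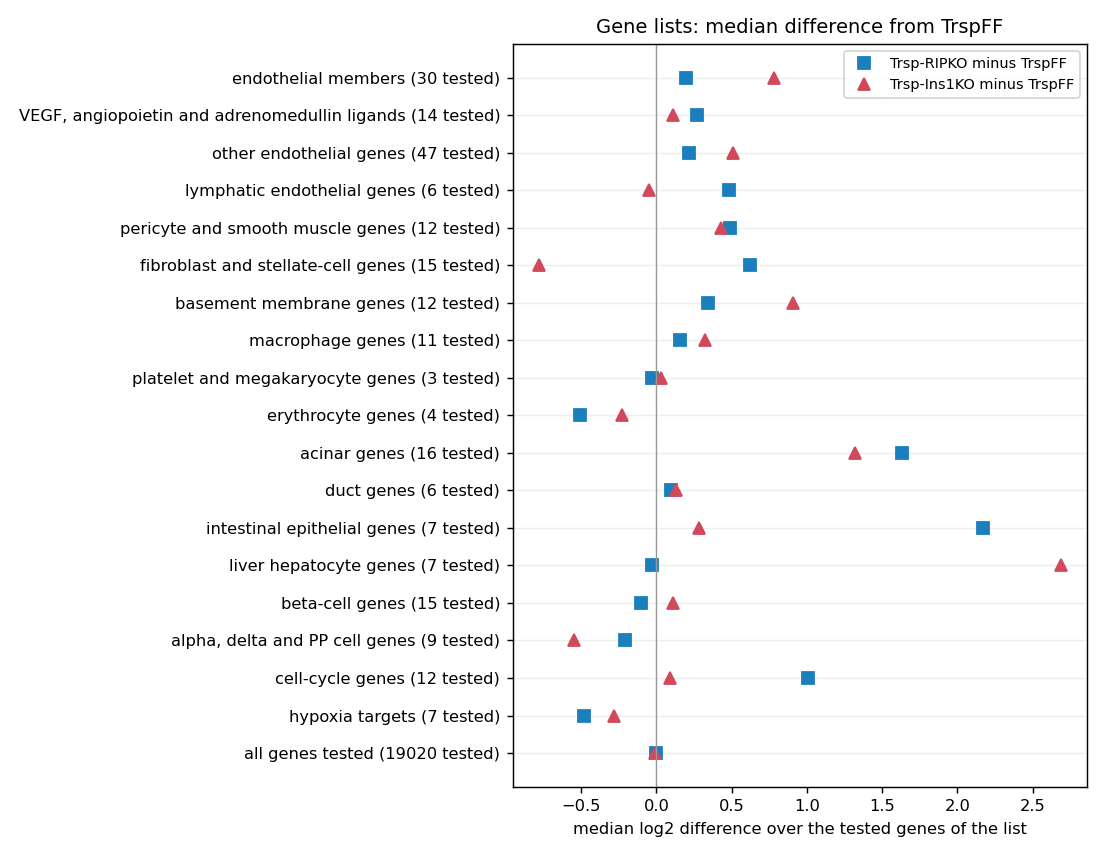
Median log2 difference from TrspFF over the tested genes of each list, for Trsp-RIPKO (blue squares) and Trsp-Ins1KO (red triangles). The endothelial members (0.20 and 0.78) and the basement membrane genes (0.34 and 0.91) lie higher in Trsp-Ins1KO, the fibroblast genes lie at 0.62 and -0.78 (0.44 and 0.09 with normexp correction), and centring arrays on their median turns the members' value in Trsp-RIPKO to -0.03.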

How the data were processed

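Total RNA of islets was labelled with Cy3 and hybridised to 6 one-colour Agilent arrays (design 026655), 2 per group. The deposited scanner files hold processed intensity values made with Feature Extraction 10.7.3.1, per the file headers. The authors' deposited table holds log2 values with column medians of 0.087, 0.141, 0.011, -0.029, -0.079 and -0.045. With columns matched, its deviations from each probe's mean equalled those of the 75th-percentile-scaled scanner values to within 5e-04. That match covers differences between arrays within a probe and not the values themselves.

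After 1377 control spots were left out, spots of each of 39429 probes were averaged without those flagged as outliers. The log2 processed intensity minus the 75th percentile over probes was analysed with limma 3.58.1 in R 4.3.3 (group means, 6 arrays, empirical Bayes, Benjamini-Hochberg adjustment over 19020 genes, threshold 0.05). A probe entered where some group had it well above background on both its arrays, and the brightest such probe stood for its gene. Probes (26053, 66.1%) were named by RefSeq accession (GRCm38.p6 table, names only), and 0 were saturated. Of the 19020 genes tested, 13369 had a symbol. The others were counted under the array's own name for the transcript, and they enter every share of all genes. For a gene not above background on any array of a group, "at least" folds used the higher of its own signal and the lowest signal well above background, per array. The number of arrays limits the precision. Alternatives were normexp background correction (offset 50, on median signals), quantile and median scaling, no or a stricter filter, the mean over probes, a trended fit, only the groups compared, a replicate block, the deposited table and each array left out. Same-numbered arrays did not deviate together (correlations 0.093, 0.079 and 0.064).

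The members and gene lists were chosen with earlier results of these data known. All members are named, with array values where a comparison called them or the difference reached 0.5. Of other lists, called genes with the largest differences are named. Summed levels add linear values relative to the 75th percentile, so bright probes weigh most. Figures were drawn with matplotlib 3.10.9.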

Additional observations from a re-analysis of the deposited data

Results flagged for a closer look

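The knockouts differed from each other in 18 members, by limma's test of the difference itself (Trsp-Ins1KO minus Trsp-RIPKO, log2, adjusted p under 0.05), with 2 arrays in each group. The differences were 0.89 for Flt1, 0.95 for Tie1, 1.15 for Eng, 1.05 for Robo4 and 0.72 for Ramp2 among the receptors, and -0.80 for Lyve1. Among junction and adhesion genes they were 0.91 for Cdh5, 0.59 for Esam and 0.47 for Icam2. The capillary genes Plvap and Gpihbp1 differed by 1.85 and 1.37, and Vwf by -3.88. The matrix-bound and cytoskeletal members Egfl7, Mmrn2 and Rasip1 differed by 0.31, 0.65 and 1.30, and the transcription factors Sox7, Sox18 and Tal1 by 0.65, 1.44 and 0.63. Trsp-RIPKO lay on a slide of its own, so slide and group cannot be told apart in these differences. Nor can array brightness and group, since the Trsp-Ins1KO arrays were dimmer. Xist also differed between these groups, and the part of sex was not tested.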

How the results depend on the processing

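Over the members' single differences, without the table under its own names, 1227 values kept their direction and side of the threshold, 102 lost a call, 50 gained one and 46 changed sign. Of the 46, 3 passed the threshold with the new sign. The cause was not tested. Dim probes limit Nrp1, Tek, Sox17 and Podxl most, and Flt4, Calcrl and Cldn5 could not be measured.

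For Trsp-RIPKO against TrspFF, median scaling gave 3 members higher and 3 lower with a median of -0.03, no filter gave 4 higher, and the deposited table under its own names gave 2 higher and 16 lower with a median of -0.51. Normexp and the trended fit each gave 2 lower and the fit of the groups compared 1 lower. Leaving out an array gave 0 to 11 higher, 0 to 1 lower and medians of 0.16 to 0.26. Over all genes 6920 calls became 2692 without the filter and 862 to 7691 without an array. For Trsp-Ins1KO against TrspFF, the table under its own names gave 2 higher and 22 lower with a median of -0.78, and the stricter filter 1 lower with a median of 0.90. Normexp gave a median of 0.57. Leaving out an array gave 14 to 23 higher, 2 to 2 lower and medians of 0.69 to 0.89. Over all genes 8737 calls became 13973 with normexp, 13943 without the filter and 3791 to 8242 without an array. Between the knockouts, the table's own names gave 0 higher and 8 lower with a median of -0.20. Median scaling, the stricter filter and the fit of the groups compared each gave 1 lower, with medians of 0.67 and 0.63 for the first and second of these. Leaving out an array gave 12 to 15 higher, 1 to 3 lower and medians of 0.41 to 0.56. Over all genes 7364 calls became 12064 with normexp, 11645 without the filter and 4175 to 6577 without an array.

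Of all called genes, the share that was higher moved in Trsp-RIPKO against TrspFF from 51.9% to 21.7% under median scaling. In Trsp-Ins1KO against TrspFF it moved from 50% to 65.8% with normexp, and between the knockouts from 49.8% to 68.7% with normexp and 70.8% under median scaling.

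With the replicate number as a block, 7, 23 and 16 members were higher in the 3 comparisons and 0, 2 and 2 lower. The arrays share only a number, so this block is no pairing.

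Changes of sign were as follows. In Trsp-RIPKO against TrspFF, normexp gave 0.05 for Nrp1, 0.12 for Tie1, -0.06 for Icam2, 0.08 for Emcn, 0.14 for Plvap, -0.16 for Egfl7 and -0.01 for Sox18. Median scaling gave -0.09 for Tek, -0.04 for Ramp2, -0.22 for Icam2, -0.07 for Cd34, -0.12 for Ecscr, -0.02 for Nos3, -0.23 for Egfl7, -0.14 for Sox18, -0.06 for Erg and -0.03 for Tal1. Quantile normalization gave -0.10 for Tek, 0.01 for Plvap, -0.01 for Erg and 0.00 for Tal1, and the mean over probes -0.06 for Nos3. Leaving out an array gave -0.15 to 0.14 for Tie1 and -0.02 to 0.03 for Egfl7. In Trsp-Ins1KO against TrspFF, Tek became -0.04 with quantile normalization and -0.03 under median scaling, and Emcn -0.01 under median scaling. Leaving out an array gave -0.06 to 0.23 for Nrp1, -0.06 to 0.18 for Emcn, -0.05 to 0.13 for Tek and -0.14 to 0.87 for Sox17. Between the knockouts, normexp gave -0.26 for Kdr (adjusted p = 0.00774), 0.38 for Tek (0.000414) and 0.32 for Sox17 (0.00135), all past the threshold in limma, and 0.13 for Pecam1 and -0.02 for Cd34. Tek became 0.06 with quantile normalization and 0.05 under median scaling, and Cd34 -0.03 in the mean over probes. Leaving out an array gave -0.02 to 0.21 for Kdr, 0.00 to 0.23 for Emcn, -0.05 to 0.61 for Podxl and -0.81 to 0.20 for Sox17.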
